A study of Mus musculus with 12 samples.

Results

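The comparison described here set mouse embryonic stem cells (ESCs) that lack HP1β (HP1βKO, genotype Cbx1-/-) against wild-type (WT) ESCs. Its members are the arrays that the labels assign to these groups, 2 HP1βKO and 2 WT, and they are 4 of the 12 arrays of the series. The other 8 arrays hold 2 of ESCs lacking HP1α (HP1αKO, Cbx5-/-) and 2 each of embryoid bodies (EBs) from HP1βKO, HP1αKO and WT cells at day 7 of suspension culture without leukaemia inhibitory factor. Transcript levels were read on single-channel Affymetrix whole-transcript arrays, as log2 signals. No treatment was given. All ESCs grew on gelatin and mitomycin-C treated mouse embryonic fibroblast (MEF) feeders, and the study's methods describe a sort of the ESCs for the surface antigen SSEA1 with magnetic beads. The labels name the line R1 for HP1βKO and HP1αKO and the line HM1 for WT, while the study's methods treat HM1 as a littermate control, so genotype and line cannot be told apart from the labels. The labels call the 2 arrays of a group biological replicates, and nothing further is said of how the cultures were kept apart. In such bulk arrays, fewer cells of a type and less RNA per cell cannot be told apart.

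HP1β, the product of Cbx1, is a small chromatin protein whose chromodomain binds methylated histone tails and whose chromoshadow domain dimerizes and recruits partner proteins. With HP1α (Cbx5) and HP1γ (Cbx3) it is known for its place in the silent chromatin around centromeres, and in ESCs it is spread more widely through the nucleus. ESCs hold together a naive programme, which resembles the early epiblast of the blastocyst, and can pass through a formative towards a primed state that resembles the epiblast after implantation, before they commit to germ layers.

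Cbx1 lay at 7.59 and 7.99 (log2) in the HP1βKO ESCs, against 9.45 and 10.01 in the WT ESCs, and at 10.05 and 9.63 in the HP1αKO ESCs. The HP1βKO arrays were thus below all 4 other ESC arrays, as their label says, with a difference of -1.94 ± 0.28 against WT (log2 difference ± limma's standard error, as in all that follows, n = 2 arrays each). The position of the probes relative to the deletion was not known here. Cbx5 read 9.72 and 9.88 in the HP1βKO ESCs, and 9.66 and 8.29 in the WT ESCs. The array labelled WT 2 was thus low in Cbx5, which goes against its label. Among the arrays labelled HP1αKO, number 1 read 8.04 and number 2 read 9.995, so number 2 went against its label too. Differences printed with their error that shrank by more than 1.5-fold without WT 2 are therefore given against WT 1 alone as well. Cbx3 read 11.37 and 11.32 in HP1βKO ESCs and 11.57 and 11.18 in WT ESCs, and the groups overlapped.

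Of 19938 genes with a feature of their own, 10004 were tested, namely those with a signal over 45 (log2 5.49) on any of the 4 arrays. The 4 arrays were alike in level, with between 91.8% and 93.3% of these genes above that floor. All 10 ESC markers examined, among them Pou5f1, Nanog and Sox2, lay above the floor on all 4 arrays, between 7.06 and 12.66. The WT arrays stood further apart from each other than the HP1βKO arrays did: the standard deviation over genes of the difference between replicates was 0.40 for HP1βKO, 0.58 for WT and 0.50 for HP1αKO. Part of this was in fibroblast genes. The summed linear signal of 28 feeder markers was 3892 and 2530 in HP1βKO, and 6401 and 2862 in WT, so WT 1 carried the most and the groups overlapped. None of the 25 feeder markers tested separated the groups, and their median difference was -0.50 with both WT arrays, -1.37 against WT 1 alone and 0.48 against WT 2 alone, where 20 of the 25 were higher in HP1βKO. Their part in the results below was not tested.

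The question of the comparison was which transcripts differ when HP1β is missing from undifferentiated ESCs. By limma's moderated test on the 6 ESC arrays, 0 of 10004 genes (0%) passed an adjusted p of 0.05, and the lowest adjusted p was 0.9998. Before adjustment 160 genes (1.60%) lay under 0.05, 60 of them higher (0.600%) and 100 lower (1.00%) in HP1βKO. Ifitm3 had the lowest unadjusted p by limma, 0.000185. The median standard error was 0.23, and the 95% interval of a typical gene reached 0.57 to each side. Even Cbx1, the deleted gene, did not pass at -1.94 (adjusted p by limma 0.9998), so large differences too could go uncalled with these arrays. No gene below is therefore a called change, and the values are given for description.

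The design also allowed a count without a test, in the manner of the pairwise fold rule in the study's methods. Both HP1βKO arrays lay above both WT arrays for 1247 genes (12.5%) and below both for 1222 genes (12.2%). At a margin of 1.5-fold in all 4 pairs of arrays, 12 genes were higher (0.120%) and 29 lower (0.290%) in HP1βKO. Read on both same-number pairs only, 68 genes were higher (0.680%) and 96 lower (0.960%), and on group means 205 were higher (2.05%) and 302 lower (3.02%). At 2.5-fold in all 4 pairs, 0 genes were higher (0%) and 4 were lower (0.0400%): Hprt, Ifitm3, Grb10 and Cbx1. With 1 array left out only 2 pairs remain, and the count at 1.5-fold was 126 without HP1βKO 1, 431 without HP1βKO 2, 752 without WT 1 and 374 without WT 2, against 41 with all. Over all genes, the difference in the number 1 pair and that in the number 2 pair correlated at only 0.10 (across genes, which are not independent replicates, in pairs that share no array), and 49.3% of genes had the same sign in both.

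**Figure D1:**
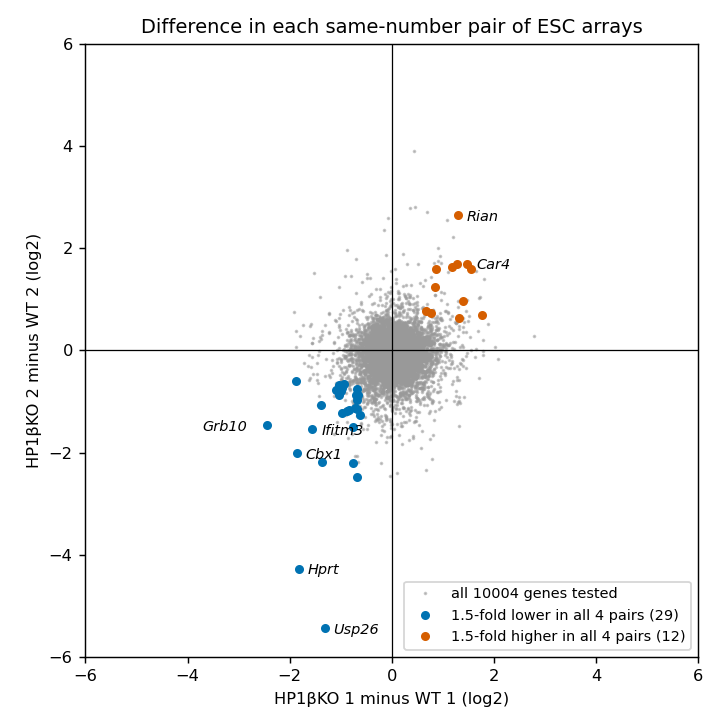
Difference of HP1βKO and WT ESCs in the number 1 pair (horizontal axis, log2) and in the number 2 pair (vertical axis, log2) for the 10004 genes tested (grey), with the 29 genes lower (blue) and the 12 higher (orange) by 1.5-fold in all 4 pairs. The grey cloud is round, with a correlation of 0.10, and a few genes such as Hprt, Usp26, Cbx1 and Grb10 stand outside it in both pairs.

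Of the genes lower in HP1βKO ESCs, 3 besides Cbx1 had the widest margins. Hprt, which encodes a purine salvage enzyme, read 4.66 and 4.56 in HP1βKO and 6.48 and 8.84 in WT, a difference of -3.05 ± 1.37. Both HP1βKO arrays were under the floor. The WT arrays disagreed by more than 2 log2 units, and against WT 1 alone the difference was -1.88. HM1 is known as a line deficient in Hprt, but in ESCs the values did not follow the line names. WT, labelled HM1, read higher than HP1βKO, labelled R1, and the HP1αKO ESCs, also labelled R1, read 8.40 and 4.25. WT 2, the highest of the ESC arrays, and HP1αKO 2, the lowest, are those whose Cbx5 opposed the label. In EBs the gene was low in WT, labelled HM1 (4.22 and 4.40), and in HP1βKO (3.83 and 4.12). The cause was not tested. Ifitm3, an interferon-inducible membrane protein that restricts virus entry, was the most even of all: 8.22 and 8.23 in HP1βKO and 9.78 and 9.77 in WT (-1.55 ± 0.20, a fold of at least 2.91 in every pair). Grb10, an imprinted adaptor that dampens insulin and growth factor receptor signalling, read 7.27 and 7.52 in HP1βKO and 9.71 and 8.99 in WT (-1.95 ± 0.42). Both genes were also lower in HP1βKO than on either HP1αKO array.

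The next genes in order of margin were mostly dim in HP1βKO. Gna14, a G protein alpha subunit, read 4.38 and 4.70 in HP1βKO and 5.74 and 6.87 in WT. Macroh2a1, which encodes the histone variant macroH2A1, was the brightest of them, at 8.28 and 8.02 in HP1βKO and 9.25 and 9.26 in WT (-1.10 ± 0.43). The HP1αKO arrays read 8.48 and 9.85 for Macroh2a1, so only a narrow gap separated HP1βKO from the lower of them. Usp26, a deubiquitinase gene best known from testis, read 3.10 and 3.50 in HP1βKO and 4.42 and 8.94 in WT, and its difference was -3.38 with both WT arrays but -1.12 against WT 1. Dppa3, a maternal factor and marker of naive cells, read 4.72 and 4.71 in HP1βKO and 5.48 and 6.91 in WT. Its difference was likewise -1.48 with both WT arrays and -0.76 against WT 1.

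The other named genes lower in HP1βKO differed by between -0.85 and -1.22 and rested less on 1 WT array. Gpt2, a mitochondrial alanine aminotransferase, read 7.16 and 7.43 in HP1βKO and 8.22 and 8.21 in WT (-0.92 ± 0.19). Ripk3, a kinase of necroptosis, read 6.43 and 6.67 in HP1βKO and 7.42 and 7.46 in WT (-0.89 ± 0.21). Parp12, an interferon-induced gene of the ADP-ribosyltransferase family, read 6.21 and 6.29 in HP1βKO and 7.19 and 7.02 in WT, but the HP1αKO arrays spanned 8.29 and 5.86. Tgfbi, a secreted matrix protein, Ncam1, a neural adhesion molecule, Aard and Gask1b had HP1βKO means under the floor and WT means between 5.50 and 6.23. All 15 named genes of this direction were picked for lying below both WT arrays, so only the HP1αKO arrays could add to that. In 13 of them HP1βKO lay below both HP1αKO arrays as well, the exceptions being Hprt and Parp12. Over all genes, 1222 lay below both WT arrays (12.2%) and 559 below all 4 other ESC arrays (5.59%). Of the 15, 8 had an HP1βKO mean under the floor.

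Among the genes higher in HP1βKO ESCs, the widest margin was that of Car4, a membrane-bound carbonic anhydrase. It read 8.82 and 8.45 in HP1βKO and 7.34 and 6.75 in WT (1.59 ± 0.59), and was lower than in HP1βKO on both HP1αKO arrays. Fgf15, a secreted growth factor of the early embryo, read 8.76 and 8.68 in HP1βKO and 7.36 and 7.70 in WT (1.19 ± 0.45). Krt18, a keratin of simple epithelia, read 9.66 and 8.55 in HP1βKO and 7.89 and 7.85 in WT (1.23 ± 0.36). Otx2, a transcription factor of the formative epiblast and the forebrain, read 9.43 and 9.96 in HP1βKO and 8.57 and 8.88 in WT (0.97 ± 0.34). These 4 were bright on all 4 arrays, and for each the HP1βKO arrays lay above the 4 other ESC arrays.

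The remaining named genes of this direction were mostly close to the floor in WT. Rpl39l, a relative of a ribosomal protein gene, read 6.52 and 7.24 in HP1βKO and 4.96 and 5.65 in WT. Zfp951, a zinc finger gene, read 5.08 and 5.87 in HP1βKO and 3.81 and 4.18 in WT, with both means under the floor. Both belong to families of similar sequence, so that cross-hybridization between copies cannot be told apart from their own signal here. Fv1, a retrovirus restriction gene of mice, read 6.64 and 6.80 in HP1βKO and 5.77 and 5.20 in WT. Zfhx3, Slc35d3, Capsl, Lrp2, Map7d3, Mal2 and Nefm had differences between 0.72 and 1.60. The 15 named genes of this direction were likewise picked for lying above both WT arrays. In 13 of them HP1βKO lay above both HP1αKO arrays as well, the exceptions being Lrp2 and Rian. Over all genes, 1247 lay above both WT arrays (12.5%) and 422 above all 4 other ESC arrays (4.22%). Of the 15, 9 had a WT mean under the floor.

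**Figure D2:**
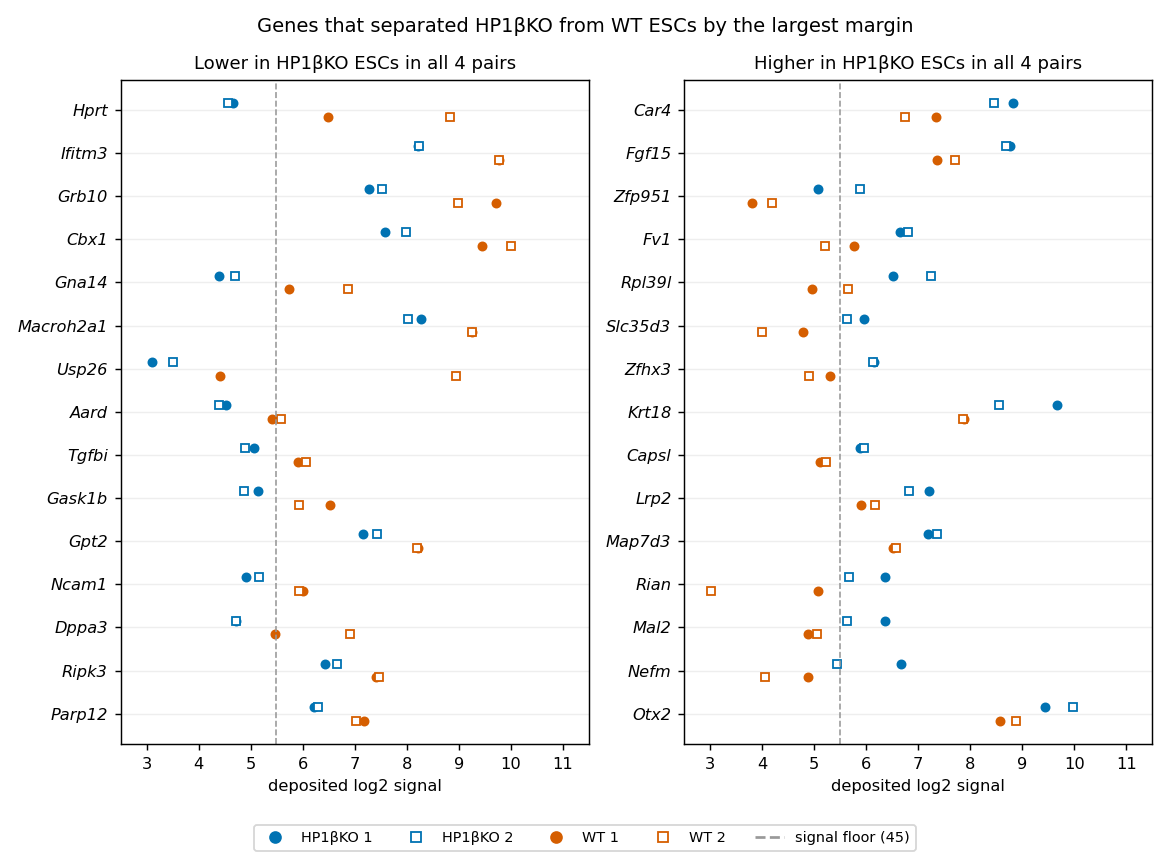
Deposited log2 signal (horizontal axis) of the 15 named genes lower (left) and the 15 higher (right) in HP1βKO ESCs, 1 gene a row, with HP1βKO in blue above WT in orange, circles for replicate 1 and squares for replicate 2. The dashed line is the floor of 45 (log2 5.49); Ifitm3 and Cbx1 have tight pairs on either side of a wide gap, while Hprt, Usp26 and Rian have WT arrays far apart.

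Of the gene lists with 10 or more genes tested, that of the amino acid response separated the groups most often. Atf4 is a transcription factor that is made when amino acids run short or the endoplasmic reticulum is stressed, and it raises genes for amino acid synthesis and import. Of the 30 such genes tested, 17 were lower on both HP1βKO arrays than on both WT arrays (56.7%, against 12.2% of all genes) and 2 were higher. Their median difference was -0.39, against -0.01 over all genes. Of the 30, 15 lay below both HP1αKO arrays as well (50%, against 5.59% of all genes). The median was -0.41 against WT 1 alone and -0.34 against WT 2 alone. Left-out arrays gave 18 without HP1βKO 1, 19 without HP1βKO 2, 20 without WT 1 and 23 without WT 2, where all genes gave between 26.7% and 42.6%. None of the 30 passed the test, and 9 lay under an unadjusted p of 0.05, all lower in HP1βKO.

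Atf4 itself read 7.05 and 7.43 in HP1βKO ESCs, against 7.99 and 8.61 in WT ESCs (-1.05 ± 0.27). Both HP1βKO arrays were below both WT arrays, and also below the HP1αKO arrays at 7.98 and 8.15. Of the other regulators in the list, some lay lower in HP1βKO and others did not. Trib3, a pseudokinase induced by stress, read 6.23 and 7.06 in HP1βKO and 7.69 and 7.63 in WT. Ddit3, the stress factor Chop, and Nupr1, a small stress-induced chromatin protein, were dim and differed by -0.44 ± 0.19 and -0.66 ± 0.27, the Nupr1 difference being -0.35 against WT 1 alone. Chac1, which degrades glutathione, read 6.04 and 6.71 in HP1βKO and 7.18 and 6.75 in WT, with a gap of only 0.05 between the groups. Atf3, a stress-induced factor, had the highest difference of the list, 0.55 ± 0.39 (0.24 against WT 1 alone), with 6.85 and 5.79 in HP1βKO against 6.08 and 5.45 in WT, and the groups overlapped. They also overlapped for Atf5, Cebpb and Cebpg, further transcription factors of the list.

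Enzymes and transporters of amino acids made up most of the others. Cth, which makes cysteine, read 7.83 and 8.14 in HP1βKO and 8.86 and 8.81 in WT (-0.85 ± 0.23). Slc7a1, an importer of basic amino acids, read 6.87 and 7.33 in HP1βKO and 7.86 and 7.91 in WT (-0.79 ± 0.22). Asns, asparagine synthetase, read 11.01 and 11.14 in HP1βKO and 11.40 and 11.76 in WT (-0.51 ± 0.25, and -0.33 against WT 1 alone). Psat1 of serine synthesis, Shmt2 and Mthfd2 of mitochondrial folate metabolism and Aldh18a1 of proline synthesis differed by between -0.48 and -0.53, with no overlap between groups. The 2 members higher in HP1βKO were Sesn2, a stress-induced inhibitor of growth signalling, at 8.66 and 8.29 in HP1βKO against 8.16 and 8.13 in WT, and the transporter Slc7a3.

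**Figure D3:**
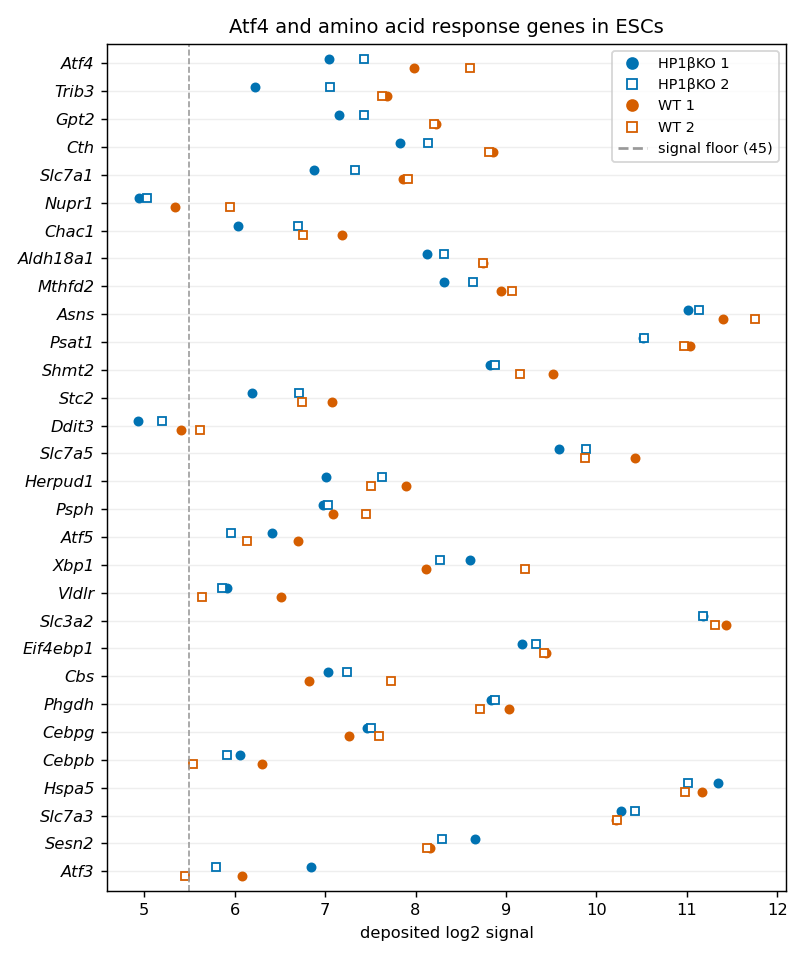
Deposited log2 signal (horizontal axis) of the 30 Atf4 and amino acid response genes tested, ordered by their difference, with HP1βKO ESCs in blue above WT ESCs in orange, circles for replicate 1 and squares for replicate 2; the dashed line is the floor of 45. In 17 rows both blue points lie left of both orange points, and in 2 rows, Slc7a3 and Sesn2, both lie right of them.

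The core of the element that Atf4 binds together with C/EBP partners, searched as TGATGNAA on both strands, was present in the promoter window of 9 of the 28 list genes that have one (32.1%), against 3.97% of all 32851 windows and 4.51% of all genes. Windows run from 250 bases before to 50 bases after a start site and come from RefSeq (GRCm38.p6). The match occurred in 4 of the 15 members that were lower in HP1βKO with no overlap and in 3 of the 11 other members tested, so members with and without the lower level held it. Asns (chr6:7693160-7693459, minus strand), Trib3 (chr2:152344011-152344310, minus strand) and Nupr1 (chr7:126625421-126625720, minus strand) are shown as members lower in HP1βKO that hold it, with the match on either strand in capitals:
Asns: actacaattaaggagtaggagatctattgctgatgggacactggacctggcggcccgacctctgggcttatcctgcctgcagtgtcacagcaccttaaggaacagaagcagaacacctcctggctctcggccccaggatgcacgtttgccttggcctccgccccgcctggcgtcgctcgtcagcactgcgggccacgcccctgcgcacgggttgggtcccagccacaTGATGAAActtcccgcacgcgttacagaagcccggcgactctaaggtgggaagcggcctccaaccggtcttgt
Trib3: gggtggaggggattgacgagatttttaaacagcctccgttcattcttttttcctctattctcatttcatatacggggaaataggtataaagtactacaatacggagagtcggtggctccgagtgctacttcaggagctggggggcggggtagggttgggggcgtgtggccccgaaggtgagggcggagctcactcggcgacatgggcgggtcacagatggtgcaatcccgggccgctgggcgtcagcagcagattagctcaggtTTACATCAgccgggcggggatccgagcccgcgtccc
Nupr1: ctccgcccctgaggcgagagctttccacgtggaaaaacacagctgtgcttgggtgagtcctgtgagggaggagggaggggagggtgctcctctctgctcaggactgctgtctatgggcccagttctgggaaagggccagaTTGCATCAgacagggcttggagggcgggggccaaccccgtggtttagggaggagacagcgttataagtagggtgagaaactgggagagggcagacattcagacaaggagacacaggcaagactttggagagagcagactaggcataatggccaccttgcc
Each holds 1 match, and a match is a description of the letters only.

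Genes of the interferon response and of antigen presentation were examined because Ifitm3 led the ranking by p. Of 16 tested, 6 were lower in HP1βKO with no overlap (37.5%, against 12.2% of all genes) and 0 were higher, with a median difference of -0.32. All 3 Ifitm genes tested were among the 6. Ifitm1 read 9.83 and 10.28 in HP1βKO and 10.39 and 11.29 in WT (-0.79 ± 0.33, and -0.33 against WT 1 alone). Ifitm2 read 9.52 and 9.50 in HP1βKO and 9.62 and 10.28 in WT (-0.44 ± 0.26, and -0.11 against WT 1 alone). These are neighbouring genes of similar sequence, so their probes may share signal. The others were Ddx58, the RNA sensor RIG-I, Irf9, a subunit of the interferon-activated transcription factor, and Oas1a, an antiviral synthetase, with differences between -0.47 and -0.66, and between -0.31 and -0.43 against WT 1 alone. The count was 13 without WT 2 and 7 without WT 1, where all genes gave 28.3% and 42.6%. Against WT 1 alone 14 of the 16 were lower, with a median of -0.34, and against WT 2 alone 8 were lower and 8 higher, with a median of 0.04. The list thus stood lower in HP1βKO mainly against WT 1.

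The interferon-stimulated element was searched as GAAA, 2 bases of any kind and GAAA again on both strands. It was present in a promoter window of 14 of the 27 list genes that have one (51.9%), against 3.44% of all windows and 3.99% of all genes. It was found in 4 of the 6 members lower in HP1βKO and in 4 of the 9 other members tested that have a window. Ifitm3 (chr7:141010695-141010994, minus strand), Ifitm2 (chr7:140955912-140956211, minus strand) and Ddx58 (chr4:40239776-40240075, minus strand) are shown, as the members of the 6 that stand for the Ifitm cluster and for RNA sensing, with each match on either strand in capitals:
Ifitm3: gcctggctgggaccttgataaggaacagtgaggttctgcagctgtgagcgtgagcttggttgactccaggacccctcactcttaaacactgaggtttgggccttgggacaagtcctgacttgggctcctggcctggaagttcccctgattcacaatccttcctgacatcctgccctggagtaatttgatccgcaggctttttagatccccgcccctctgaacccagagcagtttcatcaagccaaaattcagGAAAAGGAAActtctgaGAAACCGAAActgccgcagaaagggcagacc
Ifitm2: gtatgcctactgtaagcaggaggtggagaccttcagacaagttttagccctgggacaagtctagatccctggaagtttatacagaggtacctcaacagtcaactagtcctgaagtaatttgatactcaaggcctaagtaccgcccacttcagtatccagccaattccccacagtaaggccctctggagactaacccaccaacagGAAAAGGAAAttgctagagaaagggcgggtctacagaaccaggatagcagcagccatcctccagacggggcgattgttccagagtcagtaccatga
Ddx58: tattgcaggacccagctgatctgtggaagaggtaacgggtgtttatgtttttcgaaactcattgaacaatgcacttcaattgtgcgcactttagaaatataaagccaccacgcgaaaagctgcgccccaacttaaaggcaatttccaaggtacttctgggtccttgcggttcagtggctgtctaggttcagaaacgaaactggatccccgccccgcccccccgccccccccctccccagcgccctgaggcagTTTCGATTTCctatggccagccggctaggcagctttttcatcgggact
Ifitm3, the gene with the lowest p, holds 2 matches just after its start site, and the other windows hold 1 match each.

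Whether HP1βKO ESCs differed in their pluripotency programme was read on 3 lists. Of the core factors, Pou5f1 read 11.27 and 11.31 in HP1βKO and 11.30 and 11.24 in WT, Nanog 10.44 and 10.46 in HP1βKO and 10.33 and 11.10 in WT, and Sox2 10.63 and 10.77 in HP1βKO and 10.64 and 11.14 in WT. Groups overlapped for all 3. The core list of 18 genes had a median difference of -0.06. Without overlap, 4 members were higher (22.2%, against 12.5% of all genes) and 1 was lower (5.56%, against 12.2%). The lower one was Gdf3, a Nodal-related ligand, at 8.22 and 8.77 in HP1βKO and 9.29 and 8.99 in WT.

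Naive genes depended on which WT array was used. Of 24 tested, 23 had a lower mean in HP1βKO, and the median difference was -0.45. Yet only 3 were lower with no overlap (12.5%, against 12.2% of all genes): Dppa3, Tfcp2l1, a transcription factor that sustains naive cells, and Gbx2, a homeobox gene. Tfcp2l1 read 7.38 and 7.84 in HP1βKO and 8.06 and 9.13 in WT. Against WT 2 alone all 24 were lower, with a median of -1.08, whereas against WT 1 alone 9 were lower and 15 higher, with a median of 0.11. The mean of the list was 7.51 and 8.04 on the HP1βKO arrays and 7.71 and 8.79 on the WT arrays. WT 2 stood above the other 3 arrays. Within same-number pairs, 18 of the 24 were lower in the number 1 pair, which does not hold WT 2, with a median of -0.20, and 23 in the number 2 pair, with a median of -0.68. The size of the naive difference from WT thus depended on WT 2, the array whose Cbx5 opposed its label. Its direction against WT 1 depended on whether both HP1βKO arrays or only that of the same number were used. Against the 4 other ESC arrays, which include WT 2, the median was -0.49. Of the 24 genes, 2 lay below all 4 (8.33%, against 5.59% of all genes). For members lower than WT with no overlap, left-out arrays gave 3 without HP1βKO 1 (12.5%, against 26.7% of all genes) and 18 without HP1βKO 2 (75%, against 28.5%). They gave 23 without WT 1 (95.8%, against 42.6%) and 3 without WT 2 (12.5%, against 28.3%).

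Genes of the formative and primed epiblast had medians above 0 in HP1βKO against either WT array. Of 22 tested, 10 were higher with no overlap (45.5%, against 12.5% of all genes) and 0 were lower, with a median of 0.52. The median was 0.27 against WT 1 alone, where 14 were higher and 8 lower, and 0.80 against WT 2 alone, where 19 were higher and 3 lower. Over all genes, 5485 were higher against WT 1 and 4414 against WT 2. Of the 22, 4 lay above both HP1αKO arrays too (18.2%, against 4.22% of all genes). The count was 10 without HP1βKO 1, 17 without HP1βKO 2, 17 without WT 1 and 12 without WT 2, where all genes gave between 22.4% and 37.8%. Besides Otx2 the 10 included Dnmt3b, a de novo DNA methyltransferase, at 10.90 and 10.79 in HP1βKO and 10.54 and 9.70 in WT (0.72 ± 0.50, and 0.31 against WT 1 alone). Pou3f1, a POU factor of the epiblast and neural plate, read 7.34 and 7.48 in HP1βKO and 7.05 and 6.56 in WT. Nodal, a ligand of the epiblast, read 9.70 and 8.71 in HP1βKO and 8.55 and 8.57 in WT. The largest differences were those of Fgf5, the classic marker of the post-implantation epiblast (1.70 ± 0.87), and Cer1, an antagonist of Nodal (1.57 ± 0.69). Both came mainly from WT 2: against WT 1 alone they were 0.35 and 0.39.

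**Figure D4:**
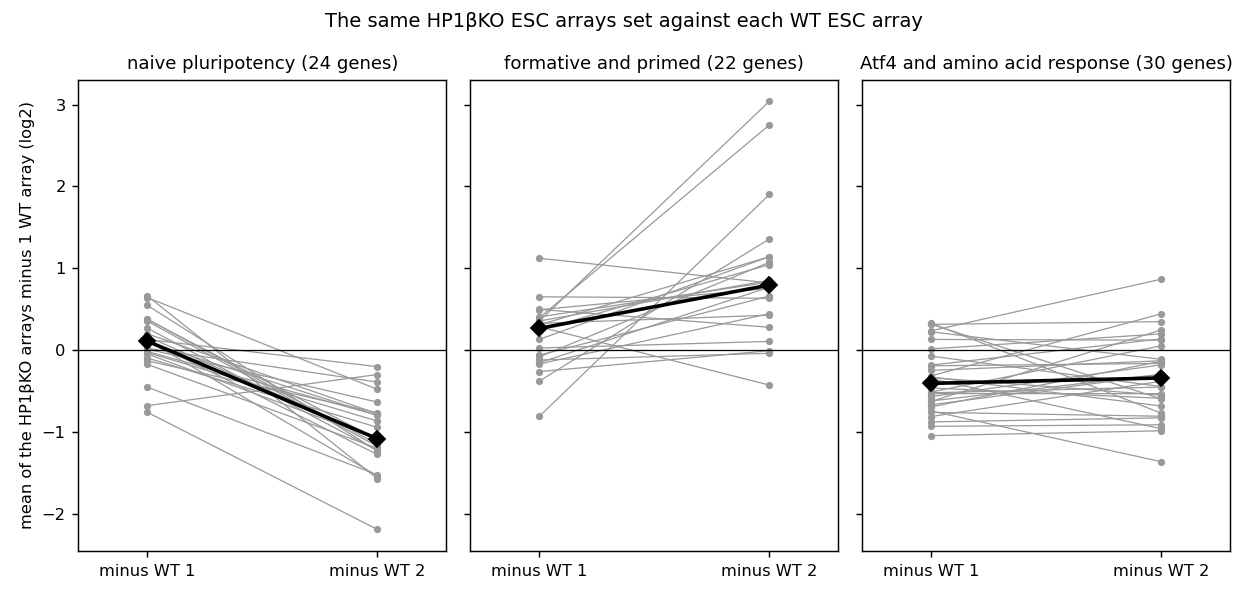
Mean of both HP1βKO ESC arrays minus 1 WT array (vertical axis, log2), set against WT 1 and against WT 2, for 24 naive genes (left), 22 formative and primed genes (middle) and 30 Atf4 and amino acid response genes (right); grey lines join a gene, and black diamonds are medians. The naive median was 0.11 against WT 1 and -1.08 against WT 2, while the formative median (0.27 and 0.80) and the Atf4 median (-0.41 and -0.34) kept their sign.

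Markers of the germ layers were mostly dim in these ESCs. Of the neural progenitor genes, 4 of 14 tested were higher in HP1βKO with no overlap (28.6%, against 12.5% of all genes) and 0 lower. The gaps between the groups were narrow, at 0.007 for Sox3, 0.019 for Hes1, 0.050 for Hes5 and 0.089 for Nes. The list median was 0.22, and 0.03 against WT 1 alone. Nes, the intermediate filament of neural progenitors, read 8.89 and 7.87 in HP1βKO and 7.78 and 6.34 in WT (1.32 ± 0.53, and 0.60 against WT 1 alone). Hes1, a Notch target, differed by 0.24 ± 0.20, and by 0.04 against WT 1 alone. Neuronal genes were split, with 4 of 14 higher (28.6%, against 12.5% of all genes) and 2 lower (14.3%, near the 12.2% of all genes). The neurofilament genes Nefl and Nefm were higher, with Nefl at 8.64 and 8.17 in HP1βKO and 7.71 and 6.31 in WT (1.40 ± 0.48, and 0.70 against WT 1 alone). Stmn2, a regulator of microtubules, was lower, at 9.84 and 9.98 in HP1βKO and 10.17 and 10.46 in WT, as was Ncam1. The median of the neuronal list was -0.08.

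Endoderm genes gave 5 of 18 higher (27.8%, against 12.5% of all genes) and 0 lower, with a median of 0.18 that was -0.04 against WT 1 alone. Gata6, a regulator of primitive endoderm, read 6.07 and 6.36 in HP1βKO and 5.57 and 5.61 in WT (0.63 ± 0.20). Sox17 read 5.64 and 5.30 in HP1βKO and 5.02 and 4.49 in WT, close to or under the floor, and Gata4, Lrp2 and Cer1 were the others. Of 19 genes of the primitive streak and mesoderm, 3 were higher (15.8%, near the share of all genes) and 1 lower (5.26%). The lower one was Bmp4, a signal for mesoderm, at 6.62 and 6.76 in HP1βKO and 7.22 and 7.92 in WT (-0.87 ± 0.26, and -0.52 against WT 1 alone). Eomes, a T-box factor of trophoblast and streak, read 8.43 and 7.14 in HP1βKO and 7.36 and 4.59 in WT, so the groups overlapped and the WT arrays were far apart. Among 13 trophectoderm genes, 4 were higher (30.8%, against 12.5% of all genes) and 1, Tfap2c, was lower (7.69%). Their median was 0.16, with 0.61 in the number 1 pair and -0.08 in the number 2 pair.

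The trophectoderm genes that were higher were Hand1, Krt18 and the keratins that go with it. Krt8 read 10.55 and 9.26 in HP1βKO and 9.16 and 8.63 in WT (1.02 ± 0.45), and Krt19 read 9.35 and 8.31 in HP1βKO and 8.02 and 8.24 in WT. Of 27 genes of cell adhesion and of the transition between epithelial and mesenchymal cells, 6 were higher with no overlap (22.2%, against 12.5% of all genes) and 1 lower (3.70%, against 12.2%). Cldn7, a tight junction claudin, read 9.02 and 8.21 in HP1βKO and 7.33 and 7.82 in WT (1.04 ± 0.34). Cldn6 differed by 0.78 ± 0.33, the splicing factor Esrp1 by 0.53 ± 0.31, Epcam by 0.37 ± 0.21 and Cdh1, E-cadherin, by 0.27 ± 0.18. The lower member was Zeb1, a repressor of epithelial genes, at 4.95 and 5.37 in HP1βKO and 6.17 and 5.88 in WT (-0.87 ± 0.29). Not every gene of this kind followed. The list median was 0.11, with 20 means above 0 and 7 below. Cldn3 lay at -0.18 against WT 1 alone and -0.33 against WT 2 alone, and Cldn4 at 0.03 and -0.95. The mesenchymal genes Cdh2 and Snai1 had means above WT (0.55 ± 0.85 and 0.24 ± 0.49), but lay at -0.81 and -0.14 against WT 1 alone. Their groups overlapped. All were given as values, since none passed the test.

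Of 25 imprinted genes, 5 were higher with no overlap (20%, against 12.5% of all genes) and 3 lower (12%, against 12.2%). Meg3 and Rian are noncoding RNAs of the Dlk1-Dio3 region, made from the maternal allele. Meg3 read 9.37 and 9.52 in HP1βKO and 8.93 and 5.62 in WT, and Rian 6.37 and 5.66 in HP1βKO and 5.08 and 3.01 in WT. WT 2 was low for both, and against WT 1 alone the differences were 0.52 and 0.94 in place of 2.17 and 1.97. HP1αKO 1 was low too, at 5.28 for Meg3 and 3.10 for Rian, while HP1αKO 2 read 9.36 and 6.01. The same 2 arrays, WT 2 and HP1αKO 1, were the low ones for Cbx5, and the cause was not tested. The others higher in HP1βKO were Dlk1, Impact and Mcts2, the last at 9.49 and 9.13 in HP1βKO and 8.76 and 8.55 in WT (0.65 ± 0.21). Those lower besides Grb10 were the cell cycle inhibitor Cdkn1c, at 7.97 and 7.50 in HP1βKO and 9.42 and 8.14 in WT, and H13.

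Among 37 heterochromatin and DNA methylation factors, 8 were higher with no overlap (21.6%, against 12.5% of all genes) and 1, the demethylase Kdm4c, was lower (-0.41 ± 0.24). The largest difference was that of Pphln1, a subunit of the HUSH silencing complex, at 10.11 and 9.31 in HP1βKO and 9.15 and 8.33 in WT (0.97 ± 0.45, and 0.55 against WT 1 alone). Dnmt3a, the partner of Dnmt3b in de novo methylation, read 8.58 and 8.89 in HP1βKO and 8.41 and 8.30 in WT. The median of the list was -0.07. Centromere and kinetochore genes gave 8 of 33 lower (24.2%, against 12.2% of all genes) and 2 higher (6.06%, against 12.5%), with a median of -0.13, and cell cycle genes 8 of 41 lower (19.5%) and 6 higher (14.6%), with a median of -0.05. Of 22 p53 targets, 6 were higher (27.3%) and 1 lower (4.55%). For germline genes whose promoters are silenced by DNA methylation, 2 of 14 were lower (14.3%) and 0 higher, and their median of -0.60 turned to 0.34 against WT 1 alone. None of the 37 Hox genes on the array reached the floor. Among signalling genes, 5 of 26 of the Nodal, BMP and TGF-beta pathways were lower (19.2%) and 2 higher (7.69%), 4 of 28 Wnt genes were higher (14.3%) and 1 lower (3.57%), and 4 of 23 FGF and MAPK feedback genes were higher (17.4%) and 1 lower (4.35%). Of 31 Polycomb subunits, 6 were lower (19.4%) and 3 higher (9.68%). All these shares stand against 12.5% of all genes higher and 12.2% lower.

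A contrast that does not use the split between WT and HP1αKO labels set HP1βKO against the 4 other ESC arrays, and shares all arrays with the comparisons above. Of 10004 genes 0 (0%) passed limma's test, with 226 (2.26%) under an unadjusted p of 0.05. HP1βKO lay above all 4 others for 422 genes (4.22%) and below all 4 for 559 (5.59%). Against HP1αKO alone, 0 genes (0%) passed and 144 (1.44%) lay under an unadjusted p of 0.05. When all 12 arrays shared 1 estimate of the spread, 1 gene passed in each of these contrasts, and it was Cbx1 (-1.99 and -2.05, adjusted p by limma 0.0173 and 0.0466).

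The EBs gave a way to ask whether the ESC values returned on arrays that were not used for them. Fitted by limma on the 6 EB arrays over the same genes, 1684 of 10004 genes (16.8%) differed between HP1βKO and WT EBs, 848 higher (8.48%) and 836 lower (8.36%). Of the 41 genes past 1.5-fold in all ESC pairs, 20 passed in EBs. Of the 29 lower in ESCs, 7 fell and 7 rose in EBs, and of the 12 higher in ESCs, 2 rose and 4 fell. Over all genes 47.6% had the same sign in both states. Genes that ran the same way in both states included Cbx1 (-1.71 ± 0.08 in EBs), Grb10, Ripk3, Aard and, upward, Zfp951 (1.39 ± 0.15, adjusted p by limma 0.000825). Atf4 fell in EBs too, to 6.39 and 6.37 in HP1βKO, against 7.35 and 7.38 in WT (-0.99 ± 0.09, adjusted p by limma 0.000319). Its list as a whole did not follow there. Of the 30 genes, Atf4 included, 2 rose and 2 fell in EBs, with a median of -0.03.

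The difference of the HP1βKO effect between EBs and ESCs was tested as an interaction on the 8 HP1βKO and WT arrays, and 9 of 10004 genes (0.0900%) passed. The test shared 1 spread between the states, although these were not equally variable. For Car4, Grb10 and Fgf15 its standard errors were 0.36, 0.35 and 0.22. Those of the ESC difference alone were larger, at 0.59, 0.42 and 0.45, but that fit also held the HP1αKO arrays. These lay apart, at 7.30 and 5.45 for Car4, 9.72 and 8.59 for Grb10, and 8.44 and 7.02 for Fgf15. The 2 sets of errors are thus not like for like. The p-values of the interaction may still be too low, because the states shared 1 spread. Otx2 was higher in HP1βKO ESCs, while in EBs it read 5.84 and 5.51 in HP1βKO and 7.78 and 7.97 in WT. Car4 read 7.59 and 7.13 in HP1βKO EBs and 10.33 and 10.50 in WT EBs, and Fgf15 read 7.31 and 7.31 in HP1βKO EBs and 9.17 and 9.37 in WT EBs. These 3 genes thus lay above WT in ESCs and below WT in EBs. Ncam1, Gfra1, a receptor subunit for GDNF, and Pcolce, a collagen-processing enhancer, ran the other way, below WT in ESCs and above it in EBs. Grb10 was below WT in both states, at 5.69 and 5.35 in HP1βKO EBs and 10.72 and 10.75 in WT EBs, and Dpysl5 and Eno3 were the last of the 9, with HP1βKO above WT in ESCs and below it in EBs. All 9 passed without either WT ESC array, where 450 genes passed without WT 1 and 107 without WT 2. In contrast, 0 genes passed when any HP1βKO ESC array or any EB array was left out.

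**Figure D5:**
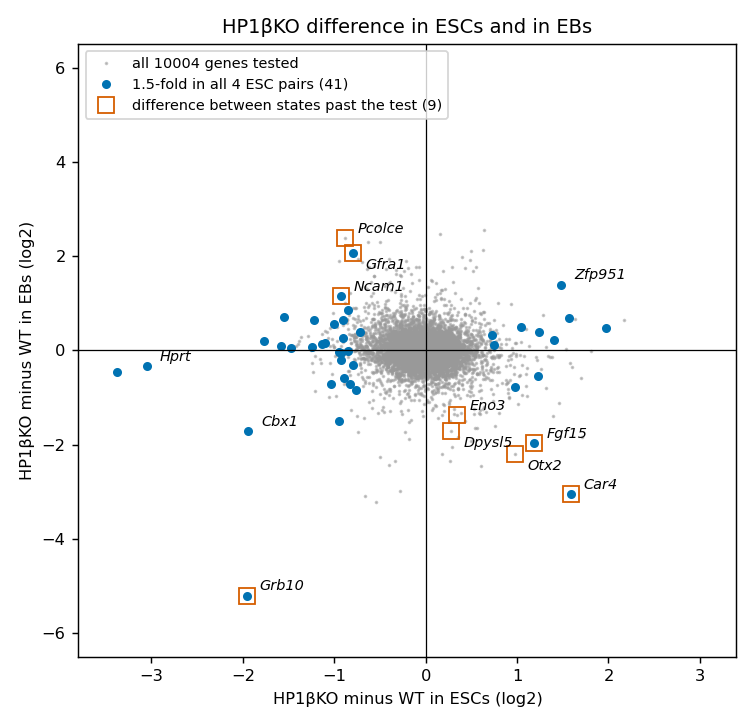
HP1βKO minus WT in ESCs (horizontal axis, log2) and in EBs (vertical axis, log2) for the 10004 genes tested (grey), with the 41 genes past 1.5-fold in all 4 ESC pairs in blue and the 9 genes whose effect differed between states in orange squares. Cbx1 and Grb10 lie below 0 on both axes, whereas Otx2, Car4 and Fgf15 lie right of 0 in ESCs and below 0 in EBs.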

How the data were processed

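The deposited values are log2 signals that the authors made with RMA, a method that corrects the background, normalizes by quantiles and summarizes probes, in Affymetrix Expression Console (version not given in the sources used here). Identifiers match the Mouse Gene 1.0 ST annotation, while the study's methods name an exon array. Of 35556 features, 21789 carried 1 symbol, and the one with the highest mean over the 4 arrays was kept for each gene. The number of arrays limits the precision.

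Genes above a signal of 45 on at least 1 of the 4 arrays entered limma 3.58.1 (R 4.3.3), with a mean for each of 3 ESC groups (6 arrays, 3 residual degrees of freedom) with empirical Bayes moderation, two-sided p-values and Benjamini-Hochberg adjustment at 0.05. The fit was tested on simulated data. P-values measure only the spread between these samples, which may be technical. Fold rules of 1.5 and 2.5 over all 4 pairs follow 1 reading of the study's methods.

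Same-number ESC replicates deviated together (correlations of the replicate differences 0.51, 0.40 and 0.31), so the numbers pair the ESC arrays in the data, and a replicate block was run as an alternative.

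Named genes are the 15 each way with the largest smallest pairwise difference, the HP1 genes, Hprt, Meg3 and list members, and for the difference between states the genes past the test. The 30 gene lists (624 of 909 entries tested) came from general knowledge. The members, lists and tests were chosen with earlier results of these data known. Left-out libraries for lists and the EB fit were added after seeing the data.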

Additional observations from a re-analysis of the deposited data

Results flagged for a closer look

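For 9 genes the HP1βKO effect differed between EBs and ESCs by limma's interaction test. The EB effect minus the ESC effect was -4.64 ± 0.36 for Car4 (adjusted p by limma 0.0119), -3.15 ± 0.22 for Fgf15 (adjusted p 0.0111) and -3.17 ± 0.31 for Otx2 (adjusted p 0.0316), which lay above WT in ESCs and below it in EBs. It was 2.86 ± 0.21 for Gfra1 (adjusted p 0.0111), 2.08 ± 0.20 for Ncam1 (adjusted p 0.0316) and 3.27 ± 0.35 for Pcolce (adjusted p 0.0383), which ran the opposite way. It was -3.25 ± 0.35 for Grb10 (adjusted p 0.0383), below WT in both states, and -1.99 ± 0.19 for Dpysl5 (adjusted p 0.0316) and -1.72 ± 0.18 for Eno3 (adjusted p 0.0383), above WT in ESCs and below it in EBs. The arrays of HP1βKO and WT did not overlap for these 9 genes in either state. Groups of 2 arrays were too small for a look at single arrays far from their group.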

How the results depend on the processing

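In each of the 15 alternatives 0 genes passed for HP1βKO against WT in ESCs. Genes under an unadjusted p of 0.05 numbered 502 with the replicate block on the 6 ESC arrays (5.02%) and 569 with the block on the 4 arrays alone, against 160 without it, and the replicate block changed no call of this comparison. They numbered between 56 and 584 with 1 array left out. On 12 arrays the count was 1 against the 4 other ESC arrays and 1 against HP1αKO. Past 1.5-fold were 164 genes in both same-number pairs, 507 by group means and 26 with a floor of 100, and between 126 and 752 with 1 array left out. Past 2.5-fold were 9 in both same-number pairs, 31 by group means and between 6 and 97 with 1 array left out. The difference between states gave 25 genes on 12 arrays (6 of the 9 among them), 169 with the replicate block (all 9 among them), and between 0 and 450 with 1 array left out. Of the single genes, Cbx3 lay between -0.22 and 0.17, Pou5f1 between -0.0097 and 0.0518, Nanog between -0.65 and 0.12 and Sox2 between -0.44 and 0.0597 with 1 ESC array left out, and without the ESC arrays whose Cbx5 opposed their label Pou5f1 was at -0.0097, Nanog at 0.12 and Sox2 at 0.0597. The others of the 96 single genes followed through the alternatives kept their sign. Not every gene or list member in the text was followed, and some turn with the WT array used. Atf5 lay at -0.51 against WT 1 alone and 0.05 against WT 2 alone, Cebpb at -0.31 and 0.44, and Cebpg at 0.22 and -0.11. The cause was not tested. Dim genes, such as Zfp951, are limited by background signal.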
